A study of Solanum lycopersicum var. cerasiforme with 6 samples.

Results

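The plant circadian clock is a loop of transcription factors and partner proteins that keeps daily time in each cell. In Arabidopsis, LHY is a MYB-type factor whose transcript peaks around dawn and which represses evening genes. GIGANTEA is a large nuclear protein with an evening peak that acts in photoperiodic flowering and stabilises a light-sensing clock protein, and TOC1 is a pseudo-response regulator (PRR) with an evening peak that represses LHY. Morning and evening genes thus peak in opposite phases of the day.

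Here 5 tomato clock genes were described, chosen by identifier out of 34081 rows in the count tables. They were LHY (Solyc10g005080), the GIGANTEA pair on chromosome 4 (Solyc04g071990) and chromosome 12 (Solyc12g056650), and a pair of TOC1/PRR-type genes on chromosome 6 (Solyc06g069690) and chromosome 3 (Solyc03g115770). The tables hold identifiers only, so the names are working names that no table used here annotates, and the chromosome is read from the identifier. Morning gene (LHY) and evening gene (the others) are likewise labels that follow these names, and no phase was measured here. All 5 had 1 row each and passed the filter on low counts.

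The tissue was the young inflorescence of F3 tomato plants (Solanum lycopersicum var. cerasiforme), frozen when no floral bud had reached 2 mm. Plants carried either the derived allele, fw2.3-D, or the wild-type allele, fw2.3-WT, of the fruit weight locus fw2.3, and stood at random positions in one greenhouse. F3 plants can still differ at other loci. Polyadenylated RNA of 2 plants was mixed into each library, giving 3 pools of fw2.3-D and 3 pools of fw2.3-WT, numbered 1 to 3 within each genotype in the labels. The labels name no collection time and do not say whether same-numbered pools share a day, a batch or a place. Total counts ran from 25094534 to 28504360 in fw2.3-D and from 22303511 to 24570493 in fw2.3-WT. As a check of the tissue, 9 of 9 loci remembered as inflorescence and floral organ identity genes were detected in every pool, and their summed level ran from 509 to 544 CPM over the fw2.3-D pools, against 539 to 557 CPM over the fw2.3-WT pools (CPM, counts scaled to a common library total with TMM normalization). Loci remembered as leaf photosynthesis genes, for the other tissue a sample could hold, were also detected in every pool. They summed to 4116 to 6056 CPM over the fw2.3-D pools, against 4208 to 6094 CPM over the fw2.3-WT pools. Whether these reads came from leaf or from the inflorescence itself was not tested. In bulk tissue, fewer cells that express a gene and less RNA per cell cannot be told apart.

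The clock genes did not separate the genotypes, but in all but 1 of them the pools numbered 1 stood apart from the others. The first pools stood apart in this way in 21.8% of all genes tested. LHY was about 2.07-fold higher in the first pools, and the TOC1/PRR-type gene of chromosome 3 was 2.44-fold lower there. Both GIGANTEA genes had lower values in the first pools, and their adjusted p was just over 0.05. The TOC1/PRR-type gene of chromosome 6 had nearly the same level in all pools. In a test over all pool numbers at once, 0 of the 5 clock genes were called by edgeR.

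**Figure D1:**
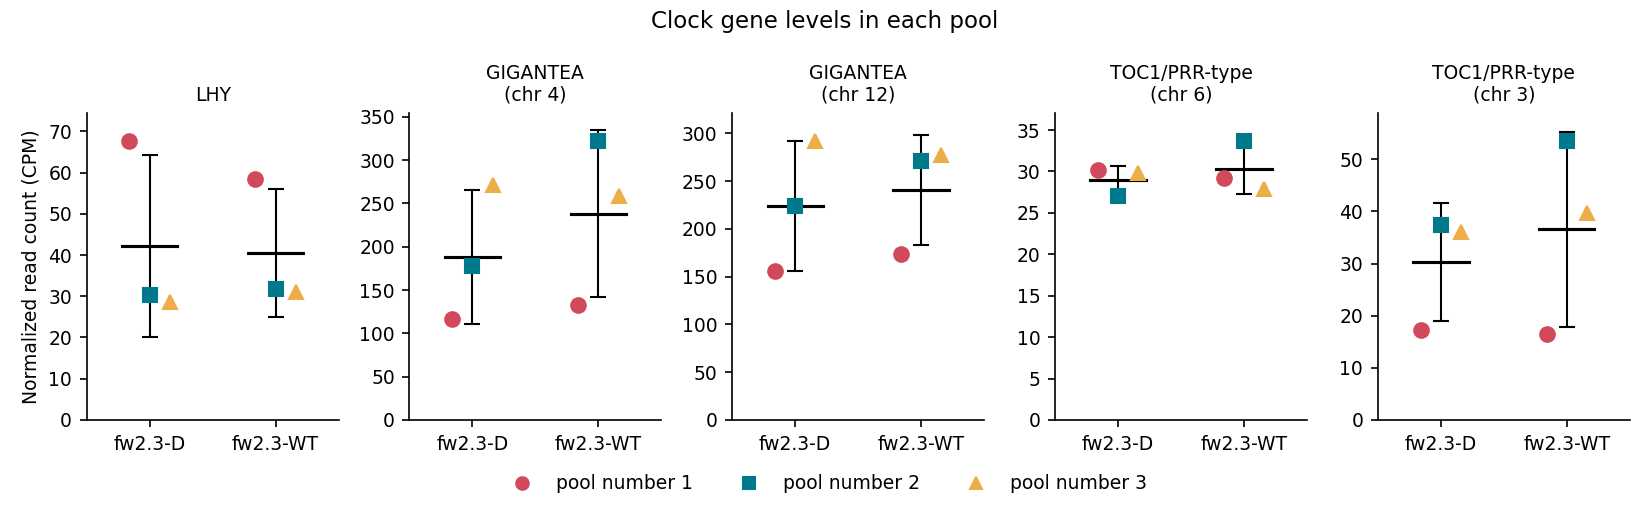
Normalized read count (CPM, linear axes from 0) of the 5 clock genes in the 3 fw2.3-D and 3 fw2.3-WT pools; symbols give the pool number, and black bars give the mean and SD of each genotype. The first pool of each genotype is the highest for LHY (67.7 and 58.5 CPM) and the lowest for both GIGANTEA genes and for the TOC1/PRR-type gene of chromosome 3.

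LHY, the morning gene, had 1689, 869 and 721 reads in fw2.3-D pools 1, 2 and 3, or 67.7, 30.3 and 28.6 CPM. It had 1415, 713 and 771 reads in the fw2.3-WT pools, or 58.5, 31.9 and 31.1 CPM. The first pool was the high one in each genotype, and the other pools of both genotypes lay between 28.6 and 31.9 CPM. The exact Poisson interval (95%) of the lowest count, 713, ran from 662 to 767, which covers counting error only. GIGANTEA on chromosome 4 had 116, 177 and 271 CPM in fw2.3-D pools 1, 2 and 3, against 133, 322 and 259 CPM in the fw2.3-WT pools. GIGANTEA on chromosome 12 had 156, 224 and 292 CPM in fw2.3-D, against 174, 271 and 277 CPM in fw2.3-WT. In both GIGANTEA genes the first pools were the lowest, the second fw2.3-D pool came next, and the remaining pools were high.

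The TOC1/PRR-type gene of chromosome 3 had 17.2, 37.4 and 36.1 CPM in fw2.3-D pools 1, 2 and 3. In the fw2.3-WT pools it had 16.5, 53.5 and 39.8 CPM. Its first pools were again the lowest, on 430 and 400 reads, and its second fw2.3-WT pool was the highest. The TOC1/PRR-type gene of chromosome 6 had 30.2, 27.0 and 29.8 CPM in fw2.3-D, against 29.2, 33.7 and 27.9 CPM in fw2.3-WT. No pool stood apart, and its coefficient of variation over the 6 pools was 7.79%, against 42.6% for the gene of chromosome 3.

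The first comparison asked whether the clock genes differ between fw2.3-D and fw2.3-WT. LHY averaged 42.2 ± 22.1 CPM over the fw2.3-D pools, against 40.5 ± 15.6 CPM over the fw2.3-WT pools (SD, n = 3 each). For GIGANTEA of chromosome 4 the fw2.3-D pools averaged 188 ± 77.8 CPM, against 238 ± 96.4 CPM over the fw2.3-WT pools. For its partner on chromosome 12 the means were 224 ± 67.9 CPM over the fw2.3-D pools, against 241 ± 57.9 CPM over the fw2.3-WT pools. Of the TOC1/PRR-type genes, that of chromosome 6 averaged 29.0 ± 1.71 CPM over the fw2.3-D pools, against 30.3 ± 3.03 CPM over the fw2.3-WT pools, and that of chromosome 3 averaged 30.3 ± 11.3 CPM over the fw2.3-D pools, against 36.6 ± 18.7 CPM over the fw2.3-WT pools. In all 5 genes the pools of the genotypes overlapped, whereas they did not overlap in 9.49% of the 20942 genes tested. In all 5 genes the SD within either genotype was larger than the difference between the genotype means. This SD includes the gap between the first pools and the others. In every gene but that of chromosome 6, the gap had the same direction in both genotypes.

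No clock gene passed the test of genotype. By the edgeR quasi-likelihood test with Benjamini-Hochberg adjustment, 0 of 5 were called at an adjusted p under 0.05, where 0.0239% of all genes were called. At an unadjusted p under 0.05 the count was 0 of 5, where 3.56% of all genes had such a p. DESeq2 called 0 of 5, where it called 48 of all genes. Limma also called 0 of 5, where it called 0 of all genes. For LHY the genotype difference, on the log2 scale, was 0.06 (SE 0.34, edgeR adjusted p = 0.99), and its 95% interval allowed a fold of 0.61 to 1.77. GIGANTEA of chromosome 4 had the largest difference of the 5, -0.34 (SE 0.34, edgeR adjusted p = 0.948), with an interval from 0.465-fold to 1.34-fold. In this fit, which has genotype alone and no pool number, the narrowest interval, 0.791-fold to 1.16-fold, was that of the TOC1/PRR-type gene of chromosome 6, at -0.06 (SE 0.12, edgeR adjusted p = 0.963).

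Set pool against same-numbered pool, 4 of the 5 genes differed most between the second pools, and LHY differed most between the first. On the log2 scale, fw2.3-D minus fw2.3-WT in the first pools ran from -0.19 for GIGANTEA of chromosome 4 to 0.21 for LHY. Between the second pools it was -0.86 for GIGANTEA of chromosome 4 and -0.51 for the TOC1/PRR-type gene of chromosome 3, and between the pools numbered 3 it lay between -0.14 and 0.09 in all 5 genes. These are single pools set side by side, with no replicate and no test.

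The second comparison asked how the morning and evening genes varied with the pool number within each genotype. LHY was 2.3-fold higher in the first fw2.3-D pool than in the geometric mean of the other fw2.3-D pools, and 1.86-fold higher in the first fw2.3-WT pool than in the other fw2.3-WT pools. GIGANTEA of chromosome 4 stood at 0.53 of the level of the other pools within fw2.3-D, against 0.46 within fw2.3-WT. For GIGANTEA of chromosome 12 these ratios were 0.611 within fw2.3-D and 0.635 within fw2.3-WT. Of the TOC1/PRR-type genes, that of chromosome 3 stood at 0.469 within fw2.3-D, against 0.36 within fw2.3-WT, and that of chromosome 6 at 1.06 within fw2.3-D, against 0.954 within fw2.3-WT. In 4 of the 5 genes the first pools of both genotypes lay on the same side of all other pools, a separation that 21.8% of all genes showed.

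Each pool number was then set against the mean of the other numbers, with genotype as a term in the model. These contrasts were chosen with it known that the first pools stood apart in clock genes, so their p-values describe and do not support. For the first pools, 2 of the 5 clock genes were called by edgeR, where 0.678% of all genes were called, 0.597% as higher and 0.0812% as lower. LHY rose in the first pools, at 1.05 on the log2 scale (SE 0.13, edgeR adjusted p = 0.018), with an interval of 1.70-fold to 2.53-fold. Its counterpart among the evening genes, the TOC1/PRR-type gene of chromosome 3, fell in the first pools, at -1.29 on the log2 scale (SE 0.16, edgeR adjusted p = 0.018), an interval of 1.90-fold to 3.14-fold lower. GIGANTEA of chromosome 4 was at -1.04 (SE 0.19, edgeR adjusted p = 0.0578) and GIGANTEA of chromosome 12 at -0.69 (SE 0.13, edgeR adjusted p = 0.0678), both short of the threshold. Unlike these, the TOC1/PRR-type gene of chromosome 6 was at 0.01 (SE 0.14, edgeR adjusted p = 0.994), and its interval ran from 0.803-fold to 1.26-fold.

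Each call was lost without one of the first pools and held without the other. Without the first fw2.3-D pool LHY was no longer called (log2 fold change 0.89, edgeR adjusted p = 0.301), while without the first fw2.3-WT pool it stayed called (1.202, edgeR adjusted p = 0.0363). Conversely, without the first fw2.3-WT pool the TOC1/PRR-type gene of chromosome 3 was no longer called (log2 fold change -1.10, edgeR adjusted p = 0.109), while without the first fw2.3-D pool it stayed called (-1.48, edgeR adjusted p = 0.0245). Leaving out a pool numbered 2 or 3 brought GIGANTEA of chromosome 4 under the threshold in 4 of 4 cases and that of chromosome 12 in 3 of 4, where 249 to 2239 of all genes were called, against 26 and 63 without the first fw2.3-D and the first fw2.3-WT pool. DESeq2 and edgeR without a filter called 4 of the 5 genes, adding the GIGANTEA pair. They called 446 and 254 of all genes, against 142 in the reported fit. Limma on the deposited RPKM called 0 of 5, where it called only 2 of all genes. At an unadjusted p under 0.05 stood 4 of 5 clock genes by edgeR and by limma, where edgeR gave 10.7% of all genes such a p.

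**Figure D2:**
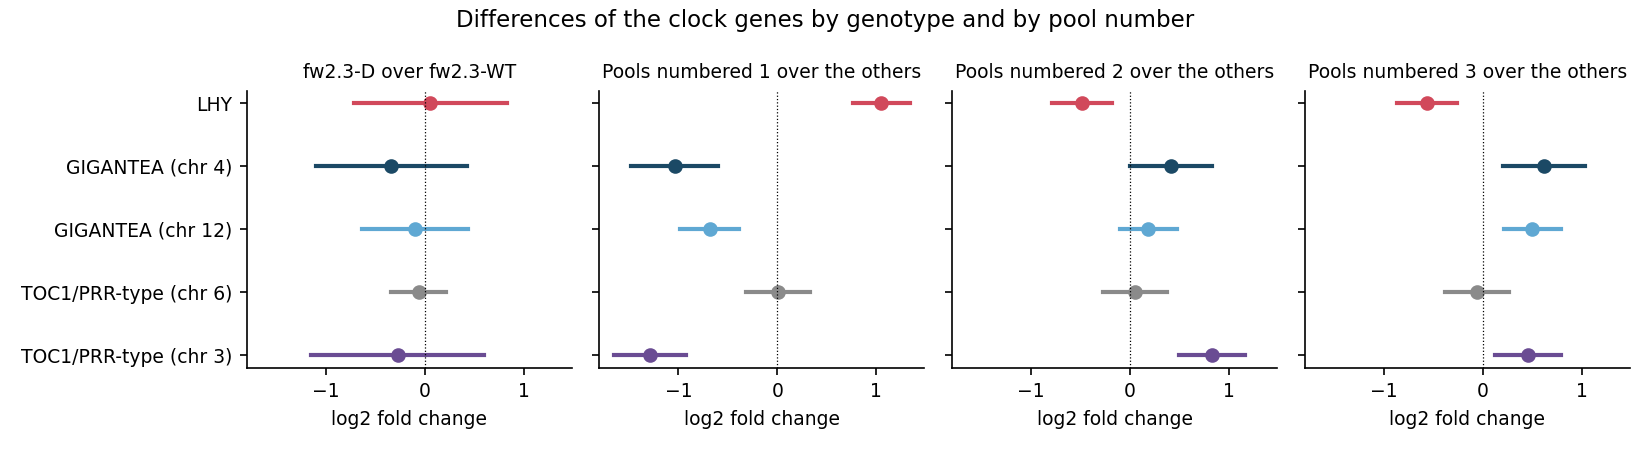
Log2 fold changes (points) with 95% intervals (lines) of the 5 clock genes from edgeR, for the genotypes (fw2.3-D over fw2.3-WT), then for the pools of each number over the other pools. The genotype intervals all include 0, while for the first pools LHY lies at 1.05, the GIGANTEA pair at -1.04 and -0.69, and the TOC1/PRR-type genes at -1.29 (chromosome 3) and 0.01 (chromosome 6).

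For the pools numbered 2 and 3 the same contrasts called 0 of 5 clock genes and 0% of all genes by edgeR. In these contrasts the first pools are among the others. Among the evening genes, the TOC1/PRR-type gene of chromosome 3 was at 0.83 in the second pools (SE 0.15, unadjusted p = 0.00035, edgeR adjusted p = 0.996), the smallest unadjusted p of the 5 genes there. At an unadjusted p under 0.05 there were 2 of 5 clock genes for the second pools, where 856 genes in all (4.09%) had such a p, and 4 of 5 for the pools numbered 3, where 1169 (5.58%) did. DESeq2 called 1 of 5 for number 2, where it called 8 of all genes, and 0 of 5 for number 3, where it called 113. Tested over all 3 numbers at once, 0 of 5 passed by edgeR, where 0.0573% of all genes did. In that test LHY had an edgeR adjusted p of 0.0573 and the TOC1/PRR-type gene of chromosome 3 of 0.0576. By edgeR 4 of 5 had an unadjusted p under 0.05, as did 7.32% of all genes. DESeq2 called 4 of 5 over all 3 numbers, where it called 343 of all genes.

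The size of the first-pool differences was placed among all genes. LHY had a log2 difference at least as large in size as all but 2.36% of the genes tested, GIGANTEA of chromosome 4 all but 2.46%, and GIGANTEA of chromosome 12 all but 6.86%. For the TOC1/PRR-type genes the share of genes with a difference as large was 1.44% for chromosome 3 and 97.5% for chromosome 6. All 5 clock genes averaged over 10 CPM, and among the 13467 genes at that level the shares were smaller, at 0.594% for LHY, 0.639% and 2.59% for GIGANTEA of chromosomes 4 and 12, and 0.223% and 96.9% for the TOC1/PRR-type genes of chromosomes 3 and 6. Ranked by p, LHY was number 20 and the TOC1/PRR-type gene of chromosome 3 number 31 of 20942. Over all 6 pools the levels spanned 3.22-fold for the TOC1/PRR-type gene of chromosome 3, 2.77-fold for GIGANTEA of chromosome 4, 2.36-fold for LHY, 1.87-fold for GIGANTEA of chromosome 12 and 1.25-fold for the TOC1/PRR-type gene of chromosome 6. The corresponding log2 range had a median of 0.59 over all genes tested, against 1.69 and 0.32 at the ends of the clock set.

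**Figure D3:**
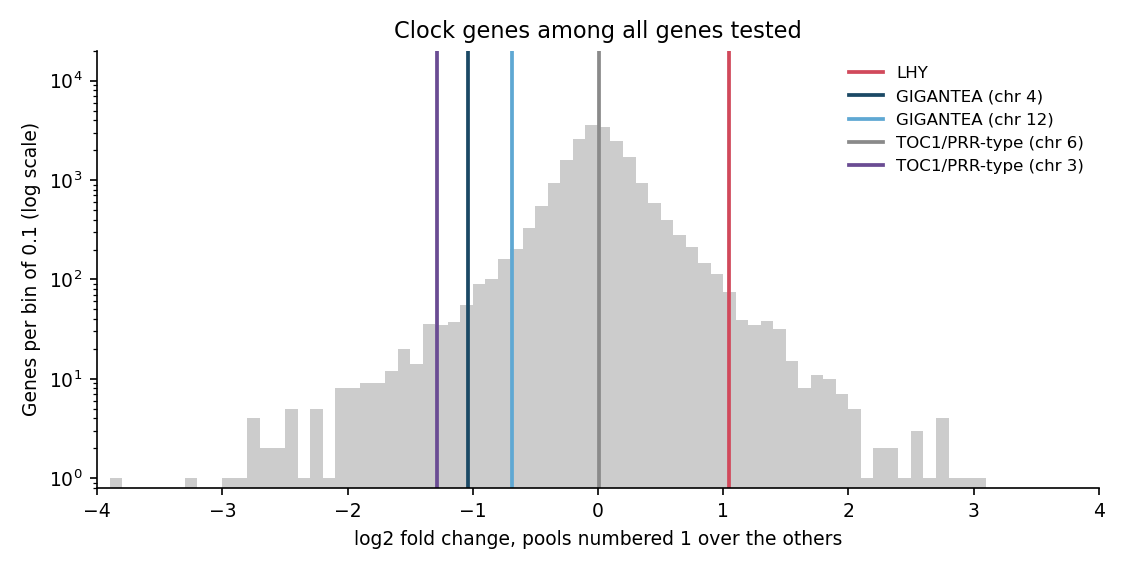
Number of genes (log axis) in bins of 0.1 of the log2 fold change of the pools numbered 1 over the others, for the genes tested, with the 5 clock genes as vertical lines; 6 genes beyond a log2 value of 4 in size lie outside the axis. LHY lies in the upper tail at 1.05, both GIGANTEA genes and the TOC1/PRR-type gene of chromosome 3 in the lower tail, and the gene of chromosome 6 near 0.

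Ratios within a pool do not depend on the library total, and were taken on RPKM, the reads scaled to gene length and to all counted reads, so that genes can be compared. The RPKM ratio of LHY to GIGANTEA of chromosome 4 was 0.833, 0.244 and 0.151 in fw2.3-D pools 1, 2 and 3, against 0.63, 0.141 and 0.172 over the fw2.3-WT pools. Its ratio to the TOC1/PRR-type gene of chromosome 3 was 3.2, 0.659 and 0.645 over the fw2.3-D pools, against 2.88, 0.485 and 0.638 over the fw2.3-WT pools. The first pool had the highest ratio in each genotype for both evening genes. Relative to the flat gene of chromosome 6, LHY stood at 1.86, 0.931 and 0.798 over the fw2.3-D pools, against 1.66, 0.786 and 0.928 over the fw2.3-WT pools. The first pools had the highest ratio against this gene as well.

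**Figure D4:**
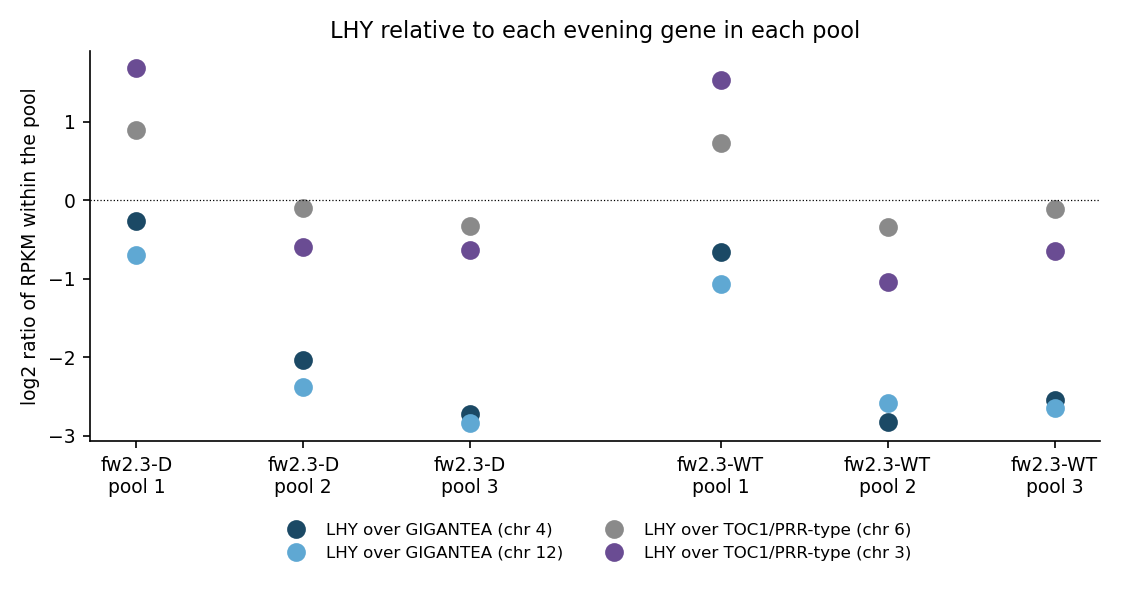
Log2 ratio of the RPKM of LHY to that of each evening gene within each of the 6 pools, with the fw2.3-D pools on the left; one point stands for 1 pool, with no error. Every ratio is highest in the first pool of its genotype, and the ratios to the TOC1/PRR-type genes are above 0 in the first pools alone.

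The order of the RPKM levels changed between the pools. GIGANTEA of chromosome 12 was the highest of the 5 in 5 of the 6 pools, and ran from 36.0 to 69.9 RPKM over the fw2.3-D pools, against 40.7 to 68.3 RPKM over the fw2.3-WT pools. GIGANTEA of chromosome 4 ran from 26.6 to 64.4 RPKM over the fw2.3-D pools, against 30.9 to 76.5 RPKM over the fw2.3-WT pools, and exceeded its partner in the second fw2.3-WT pool alone. The genes of the pair thus differed by less than their spread between pools. Below them, LHY came next in the first pools, at 22.1 RPKM for fw2.3-D, against 19.5 RPKM for fw2.3-WT. The TOC1/PRR-type gene of chromosome 6 followed there at 11.9 RPKM for fw2.3-D, against 11.7 RPKM for fw2.3-WT, and that of chromosome 3 came last at 6.90 RPKM for fw2.3-D, against 6.76 RPKM for fw2.3-WT. In the other pools this order was turned round: the gene of chromosome 3 followed the GIGANTEA pair, at 15.1 to 15.7 RPKM for fw2.3-D, against 17.1 to 22.3 RPKM for fw2.3-WT, and LHY came last, at 9.73 to 10.3 RPKM for fw2.3-D, against 10.8 to 10.9 RPKM for fw2.3-WT.

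**Figure D5:**
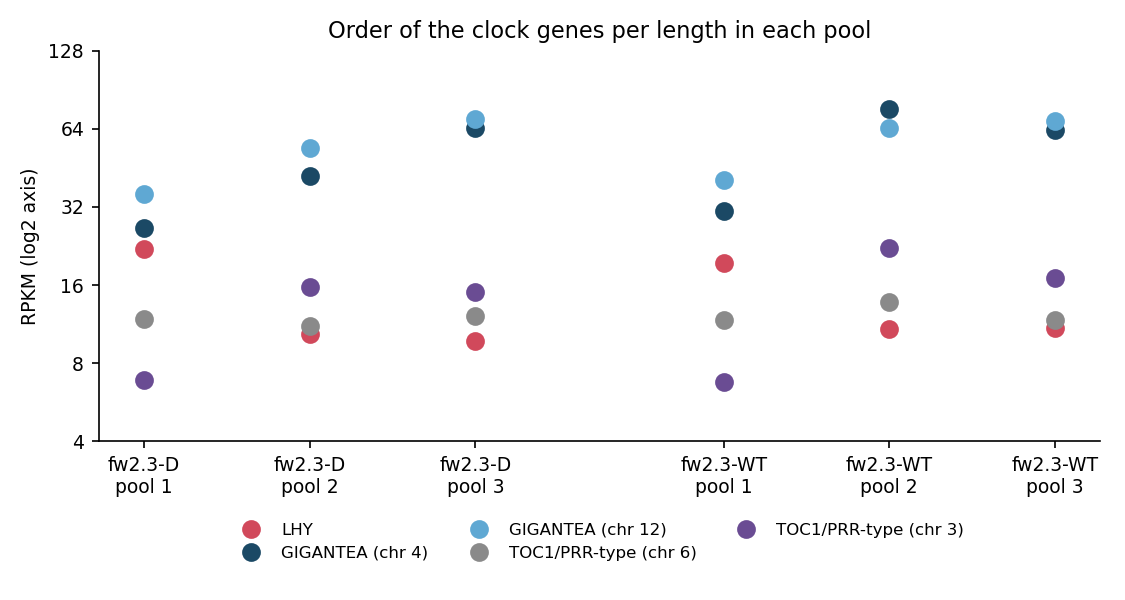
RPKM (log2 axis) of the 5 clock genes in each pool, with the fw2.3-D pools on the left; one point stands for 1 pool, with no error. LHY lies above both TOC1/PRR-type genes in the first pool of each genotype (22.1 and 19.5 RPKM) and below both in every other pool.

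The GIGANTEA pair followed similar profiles. The RPKM ratio of chromosome 4 to chromosome 12 was 0.738, 0.786 and 0.921 in fw2.3-D pools 1, 2 and 3, against 0.759, 1.18 and 0.928 over the fw2.3-WT pools. Centred on each gene's mean, their log2 CPM differed by a root mean square of 0.23 over the 6 pools, which placed the gene of chromosome 12 at rank 37 among 13466 other genes by likeness to that of chromosome 4. How the submitters counted reads that match both copies is not given in the sources used here, so the separate values of the pair are uncertain. Summed over both rows, the pair stood at -0.85 on the log2 scale in the first pools (SE 0.16, edgeR adjusted p = 0.0578) and at -0.21 for fw2.3-D over fw2.3-WT (SE 0.29, edgeR adjusted p = 0.953).

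The TOC1/PRR-type pair did not share a profile. The RPKM ratio of chromosome 3 to chromosome 6 was 0.582, 1.41 and 1.24 in fw2.3-D pools 1, 2 and 3, against 0.577, 1.62 and 1.45 over the fw2.3-WT pools. It was below 1 in the first pools and above 1 in all others.

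Measured against the sign-reversed profile of LHY over the 13467 genes that averaged 10 CPM or more, GIGANTEA of chromosome 12 ranked 27, the TOC1/PRR-type gene of chromosome 3 ranked 62 and GIGANTEA of chromosome 4 ranked 79. The other TOC1/PRR-type gene, on chromosome 6, ranked 6337. Against the sign-reversed mean profile of the GIGANTEA pair, LHY ranked 270. By likeness to that mean profile itself, the TOC1/PRR-type genes of chromosomes 3 and 6 ranked 479 and 4761. The genes nearest to LHY itself, over the 6 pools, were Solyc04g072160.3 on chromosome 4, at a root mean square difference of 0.086, and Solyc09g090570.2 on chromosome 9, at 0.0954. The first had 46.3, 20.2 and 18.0 CPM over the fw2.3-D pools, against 41.0, 18.8 and 19.4 CPM over the fw2.3-WT pools. Nearest to the mean profile of the GIGANTEA pair were Solyc10g079840.2 on chromosome 10 (0.103) and Solyc07g041900.3 on chromosome 7 (0.121). The last of these had 20.7, 38.2 and 43.3 CPM over the fw2.3-D pools, against 27.5, 52.2 and 43.7 CPM over the fw2.3-WT pools. With 6 pools of which the first stand apart, such likeness describes these libraries.

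A further 19 loci, remembered from published assignments as clock and photoperiod genes but not annotated in any table used here, were all tested. Between the genotypes 7 had higher and 12 lower values in fw2.3-D, 0 were called by edgeR, and the median log2 fold change was -0.20, against 0.00 over all genes. In the first pools 9 had higher and 10 lower values, with a median of -0.08 against 0.00 over all genes. Of these 19, edgeR called 3 as lower and 0 as higher in the first pools, where 0.0812% of all genes were called lower and 0.597% higher. The differences in the first pools ran from -3.29, at a locus with few reads, to 1.08.

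The list of leaf photosynthesis loci, the other part of the tissue check, was also compared. All 9 of the Rubisco small subunit and chlorophyll-binding loci listed from memory had higher values in the first pools, and 3 of 9 were called as higher by edgeR, where 0.597% of all genes were. The other 6 had an edgeR adjusted p of 0.0595 to 0.399. The 3 called loci, at 0.85, 0.86 and 1.09 on the log2 scale, belong to a single run of neighbouring identifiers on chromosome 2. Listed loci outside that run were at 0.29 to 0.39, with an edgeR adjusted p of 0.229 to 0.399. The median log2 fold change was 0.56, against 0.00 over all genes. Their summed level was 6056 CPM in the first fw2.3-D pool and 6094 CPM in the first fw2.3-WT pool, against 4116 to 4996 CPM in the other fw2.3-D pools and 4208 to 4537 CPM in the other fw2.3-WT pools. None of the 9 was at 0 in any pool, and several are near-identical copies that can share reads. Between the genotypes their median was 0.05, with 0 called by edgeR. In the list of inflorescence and floral organ loci, 7 had higher and 2 lower values in the first pools. Their median there was 0.19, with 0 called by edgeR. They summed to 544 CPM in the first fw2.3-D pool, against 509 to 541 CPM in the other fw2.3-D pools. The first fw2.3-WT pool had 557 CPM, against 539 to 541 CPM in the other fw2.3-WT pools. The part of either list in the clock gene differences was not tested.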

How the data were processed

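Young inflorescence RNA was sequenced in 6 libraries, each a pool of 2 plants, from kits that do not keep strand, per the labels' protocols, so reads of overlapping antisense genes cannot be told apart. The deposited count files hold whole-number reads per gene in 34081 rows, not normalized. The authors' deposited table of RPKM has 34075 rows. The submitters' processing notes list cutadapt, STAR and edgeR but not what each did; the counting program is not given in the sources used here.

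Genes were tested with edgeR 4.0.16 (glmQLFit, glmQLFTest, two-sided) in R 4.3.3, with TMM factors and filterByExpr at a minimum count of 10, which left 20942 rows; p-values were adjusted over all of them and called under 0.05. The genotype fit had genotype alone. The pool number fit had genotype and number, with an F test on 2 degrees of freedom and each number against the mean of the others. The SE is the log2 fold change over the square root of F. Log2 CPM used a prior count of 2. No source says that the pools come from separately grown sets of plants, so p-values measure the spread between these pools. Alternatives were DESeq2 1.42.0, RLE factors, other filters, a robust fit, the replicate block, limma 3.58.1 on log2(RPKM + 1) and log2(RPKM + 0.1), and each pool left out. Summing the GIGANTEA rows and leaving out both first pools were added after seeing the data.

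The members, lists, contrasts and tests were chosen with earlier results of these data known, including that the first pools stood apart in clock genes; the p-values by pool number are therefore descriptive. The rule for named genes took all 5 members and the 2 genes nearest to the LHY and to the mean GIGANTEA profile. The planned promoter motif search was not run because no sequences were used here. The models were also run on simulated counts with known changes, drawn independently for each pool with the spread of the genotype fit. Beyond the known changes, same-numbered pools shared nothing there, so that run cannot show how the models behave where they do.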

Additional observations from a re-analysis of the deposited data

How the results depend on the processing

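Across all alternatives run, 0 of 5 clock genes were called between the genotypes, and in the first pools LHY kept a higher and the GIGANTEA pair and the TOC1/PRR-type gene of chromosome 3 kept lower values. The count of genes called between the genotypes, 5, came to 10 with the replicate block, 48 under DESeq2, 13 with no filter, 0 and 0 by limma with pseudocounts of 1 and 0.1 on the RPKM (774 and 746 unadjusted), 21 with both first pools left out, 746 at an unadjusted p under 0.05, and 0 to 18 with each pool left out. With the block the SE of the genotype difference was 0.123 for LHY, 0.175 and 0.122 for GIGANTEA of chromosomes 4 and 12, and 0.134 and 0.142 for the TOC1/PRR-type genes of chromosomes 6 and 3, against 0.344, 0.342, 0.239, 0.123 and 0.391 without it. In the same order, the log2 differences with the block were 0.007, -0.33, -0.12, -0.06 and -0.20. Their edgeR adjusted p ran from 0.895 to 0.995. The replicate numbers were not shown to pair the pools: deviations of same-numbered pools from their genotype means correlated at 0.357, -0.085 and 0.061, and 2 of the 6 pools were closest to the pool of their own number. For the pool number over all 3 numbers the count of 12 was 343 with DESeq2, 88 without a filter, 0 and 0 with limma (1619 and 1596 unadjusted), 1534 unadjusted, and 19 to 1753 with each pool left out. For the first pools the count of 142 was 446 with DESeq2, 254 without a filter, 66 without the genotype term, 2 and 2 with limma, 2240 unadjusted, and 26 to 2239 with each pool left out, the highest without the second fw2.3-D pool. For the second pools the count of 0 was 8 with DESeq2, 856 unadjusted and 1 to 476 with each pool left out; for number 3 it was 113 with DESeq2, 2 without a filter, 1169 unadjusted and 4 to 1039. A fit without 1 first pool leaves 1 first pool and assumes that it varies like the others.

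In the first pools LHY lost its call with limma (log2 fold change 0.929 and 0.986); leaving out each pool gave 0.894 to 1.202. The TOC1/PRR-type gene of chromosome 3 also lost it with limma (-1.23 and -1.33); leaving out each pool, it ran from -1.48 to -1.10. GIGANTEA of chromosome 4 gained a call with DESeq2 (-1.04) and without a filter (-1.04), was under 0.05 unadjusted (-1.04), and lay between -1.22 and -0.82 when 1 pool was dropped, called in 4 of 6 such fits; that of chromosome 12 did so at -0.69, -0.69 and -0.69, and ran from -0.76 to -0.62, called in 3 of 6. The TOC1/PRR-type gene of chromosome 6 changed sign with limma (-0.042 and -0.044) and ran from -0.088 to 0.108. Between the genotypes LHY changed sign with limma (-0.013 and -0.017) and with both first pools left out (-0.10), and ran from -0.46 to 0.42. The others ran from -0.70 to -0.06 and from -0.34 to 0.10 (GIGANTEA of chromosomes 4 and 12), and from -0.12 to 0.0205 and from -0.62 to 0.10 (TOC1/PRR-type genes of chromosomes 6 and 3). The cause was not tested. Of the 2 genes named as nearest to LHY, 1 was kept with a minimum mean of 1 CPM and 1 on log2(RPKM + 1); for the GIGANTEA profile, 1 was kept with the lower minimum. At the lowest clock gene count, 400 reads, the exact Poisson interval ran from 362 to 441, within a smaller range than the pools of that gene.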
